A study of Mus musculus with 6 samples.

Results

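Endothelial cells of the mouse bladder mucosa were picked out of a single-cell RNA sequencing series by their transcripts, and 339 of 55399 cells (0.612%) met the rule. A cell was a member when it had more than 500 detected genes, at least 5 UMIs (unique molecular identifiers, counted transcripts) summed over Pecam1, Cdh5, Plvap, Cldn5 and Egfl7, fewer than 20 over 6 keratin genes, fewer than 20 over the matrix genes Col1a1, Col1a2, Col3a1 and Dcn, and no more than 2 over C1qa, C1qb and C1qc. The members were thus chosen by the measured UMIs of these genes, and the levels that set them apart from other cells are given as a description, with no test. The series compared wild type C57BL/6 mice aged 8 weeks in 3 conditions with 2 libraries each, without treatment (healthy), 48 h after cyclophosphamide (CPP, an alkylating drug that damages the urothelium, acute injury), and after 4 rounds of CPP over 11 days (chronic injury). By the study's methods, chronic bladders were likewise taken 48 h after the final injection, and each chronic dose was lower than the acute one. The mucosal layer was torn off the bladder and digested to single cells, and the muscle layer was not part of the sample. The study describes the 2 libraries of a condition as biological replicates, which came from several mice, and p-values below take libraries, not cells, as the units. The main acute comparison has 1 healthy library, so its p-values rest on the spread between the acute libraries, pooled over genes.

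Endothelial cells line all blood vessels and form the barrier between blood and tissue. Arterial, capillary and venous cells differ in their genes, with Notch signalling prominent in arteries, transport and lipid handling in capillaries, and leukocyte recruitment in venules. Vascular endothelial growth factor (VEGF) receptors guide the growth and survival of these cells. DNA damage stabilises the transcription factor p53, which turns on genes of cell cycle arrest, apoptosis and repair.

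The libraries held 54604108 to 111985680 UMIs, with a median of 5530 to 9138 per cell. The number of endothelial cells was low and uneven. It was 41 and 10 in healthy, 34 and 231 in acute, and 16 and 7 in chronic libraries 1 and 2. The UMIs of these cells, summed over the 14338 genes used, ran from 18138 in chronic 2 to 475259 in acute 2. With so few UMIs, 3 counts corresponded to 19.5 counts per 1000000 UMIs (CPM) in healthy 1, 134 in healthy 2, 26.1 in acute 1, 6.31 in acute 2, 85.2 in chronic 1 and 165 in chronic 2, and a level below these values could not be told from absence. Any pair of libraries shared 0.673% to 2.28% of the barcodes of the smaller one. A doublet caller marked 10 members, all of them in acute 2. Members also held urothelial transcripts, and the summed level of 18 urothelial genes was 1643 and 7596 CPM in healthy 1 and 2, 3386 and 7823 in acute 1 and 2, and 13098 and 7167 in chronic 1 and 2.

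The members carried the endothelial programme beyond the genes that chose them. Of 31 pan-endothelial genes outside the gate that were measured, 30 were highest in the members among the 5 gated classes and 24 were over 4-fold higher than in the next class. Their summed level was 10916 to 16532 CPM in the members of the 6 libraries, against means of 50.9 in 17767 urothelial cells, 1382 in 7081 fibroblasts and 338 in 284 macrophages of healthy 1 and both acute libraries, and 545 in 81 mural cells of acute 2, the 1 library with enough of them. The gate genes themselves are listed as a description of the rule. Pecam1, the platelet and endothelial adhesion molecule, was at 1007 and 760 CPM in healthy 1 and 2, 670 and 648 in acute 1 and 2, and 767 and 717 in chronic 1 and 2. Cdh5, the cadherin of endothelial junctions, was at 773 and 581, 505 and 499, and 256 and 662 CPM in the same order. Egfl7, a secreted endothelial factor, was at 1916 and 1743, 1332 and 1936, and 1506 and 1158 CPM. Cdh5 was lowest in chronic 1 and Egfl7 in chronic 2. Plvap, the diaphragm protein of fenestrated capillaries and venules, spread more, at 1091 and 2502 CPM in healthy, 905 and 1109 in acute and 1534 and 110 in chronic libraries. Dll4, which is outside the gate and a Notch ligand of arterial and sprouting cells, was at 162 and 134, 104 and 90.5, and 85.2 and 0 CPM.

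**Figure D1:**
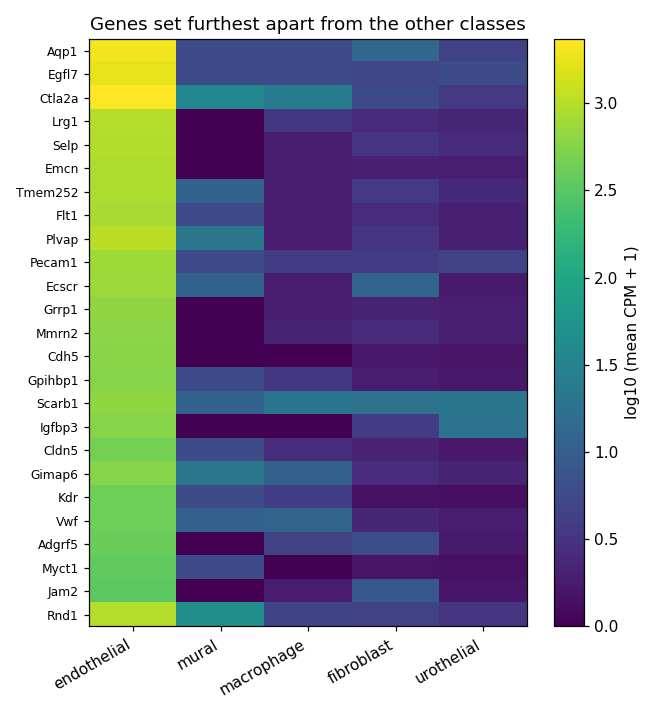
Mean CPM of the 25 genes with the largest ratio to the next class, as log10 (mean CPM + 1), for 5 gated cell classes (columns). Each gene is highest in endothelial cells, from Ctla2a at 2338 CPM to Jam2 at 334 CPM, while the other classes are at 46.3 CPM or less. Egfl7, Plvap, Pecam1, Cdh5 and Cldn5 are gate genes, so the rule itself set them apart.

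In the 3 libraries with 20 or more members, 1927 genes reached a mean of 100 CPM, 788 of them were highest in endothelial cells and 126 (6.54%) were over 4-fold higher than in each other class. Aqp1, a water channel of capillary endothelium, led at 2048 CPM ± 1023 (SD, n = 3), a ratio of at least 133 to the next class, where it was under the limit of 15.4 CPM set by 3 counts in mural cells. Egfl7, a gate gene and so set apart by the rule, followed at 1728 CPM ± 343 (SD, n = 3), at least 112 times that limit. Ctla2a, a protease inhibitor homolog, was at 2338 CPM ± 402 (SD, n = 3) and 64.9 times the mural level of 36.0 CPM. The leading genes then fell into a few roles. Selp, Vwf and Lrg1 serve leukocyte capture, haemostasis and angiogenic signalling, and were at 955, 423 and 996 CPM. Flt1 and Kdr, the VEGF receptors, were at 849 and 426 CPM. Emcn and Mmrn2, surface and matrix glycoproteins of vessels, were at 899 and 604 CPM. Gpihbp1, which holds lipoprotein lipase on capillaries, was at 566 CPM, and Scarb1, the receptor of high-density lipoprotein, at 653 CPM. Cldn5, also a gate gene, and Jam2, both junction proteins, were at 465 and 334 CPM, and Igfbp3, a growth factor binding protein, at 568 CPM. Tmem252, Ecscr, Grrp1, Gimap6, Adgrf5, Myct1 and Rnd1 completed the list at 352 to 977 CPM.

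Lymphatic vessels were nearly unseen. Only 6 of 12 lymphatic markers were in all tables, and their summed level was 71.4 to 568 CPM. Prox1, the lymphatic master regulator, was at 0 in both healthy libraries and in chronic 2, and at 34.8, 12.6 and 28.4 CPM in acute 1, acute 2 and chronic 1. Lyve1, the hyaluronan receptor of lymphatic cells, was above 0 only in acute 2 and chronic 1, at 8.42 and 142 CPM. Flt4, Ccl21a, Reln and Mmrn1 were not analysed here.

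The share of endothelial cells varied as much between libraries of 1 condition as between conditions. It was 0.491% in healthy 1 (95% Wilson interval 0.362 to 0.666) and 0.103% in healthy 2 (0.0561 to 0.190). Acute 1 had 0.493% (0.353 to 0.688) and acute 2 had 1.67% (1.47 to 1.89). Chronic 1 had 0.142% (0.0876 to 0.231) and chronic 2 had 0.131% (0.0634 to 0.270). The intervals cover counting error only. The high value of acute 2 stood alone, and acute 1 matched healthy 1, but acute 2 also kept the shallowest cells, down to 781 UMIs. The acute mean of 1.08% ± 0.830 (SD, n = 2) exceeded the healthy mean of 0.297% ± 0.274 (SD, n = 2) by 0.782 percentage points, with p = 0.333 in an exact two-sided permutation test, the smallest value 2 against 2 libraries can give. The chronic mean was 0.137% ± 0.008 (SD, n = 2), 0.161 points below healthy, with p = 1 in the same exact test, and the difference was 0.0334 points above 0 without healthy 1.

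**Figure D2:**
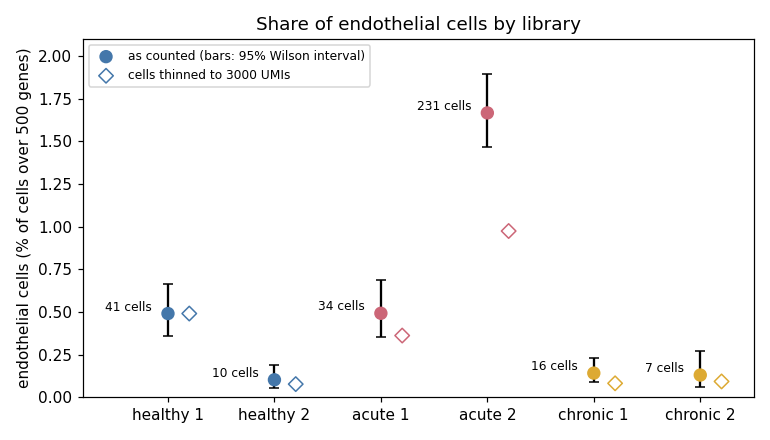
Endothelial cells as a percentage of cells with over 500 genes in each library, with 95% Wilson intervals (filled points) and after each cell was thinned to 3000 UMIs (open points). Acute 2, with 231 cells, lies above the other 5 libraries, which have 7 to 41.

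The shares depended on depth and on the denominator. The median UMIs per member were 4319 and 3148.5 in healthy, 4666 and 3029 in acute and 2913 and 3930 in chronic libraries. The shallowest cell of any class held 3386 and 2673 UMIs in healthy, 3826 and 781 in acute, and 1991 and 3440 in chronic libraries. Shallow members could thus be counted in some libraries only, and thinning cannot add cells that a library lacks. The part of these limits in the shares was not tested. After each cell was thinned to 3000 UMIs, with 0, 699, 0, 3089, 1558 and 0 shallower cells left out, the shares were 0.491% and 0.0779% in healthy, 0.362% and 0.975% in acute, and 0.0825% and 0.0935% in chronic libraries. Per 100 fibroblasts, the members numbered 2.17 and 0.556 in healthy, 6.67 and 4.94 in acute, and 1.24 and 6.19 in chronic libraries. Acute 1 was then the highest and chronic 2 rose above both healthy libraries. At the edge of the rule in acute 2, the pan-endothelial genes were taken per 1000000 UMIs of all genes, unlike the other levels given here. On that scale, 70 cells with 3 or 4 gate UMIs had 6701, and 80 members with 5 or 6 had 6707. The 151 members with 7 or more had 8081. Of 419 cells that passed the endothelial gate, the keratin limit removed 51 and the matrix limit 31.

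The members split into 6 clusters once each gene was centred within its library. Cluster genes and shares are a description, since the same cells and genes made the clusters. Cluster 0, venous-like, held 132 cells (38.9%) and was highest in 11 of 15 venous markers. Its Lrg1 was at 2032 against 424 CPM in the other members, and its Ackr1, the chemokine-binding receptor of venules, at 676 against 132. Selp, the P-selectin of venules, was at 1551 CPM there and at 54.3 in cluster 1. Mt2, a metallothionein, led the cluster at 1366 against 134 CPM, ahead of Fgl2, Cd14, Egr4 and Kank1. Myzap, Zc3h12a and Sbsn closed its 10 leading genes.

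Cluster 1, capillary-like, held 109 cells (32.2%) and was highest in 7 of 11 detected capillary markers. Among these, Aqp1 was nearly level with cluster 0, at 2618 against 2600 CPM. Gpihbp1 was at 1816 against 157 CPM in the other members, Rgcc, a cell cycle regulator of capillary cells, at 1407 against 193, and Igfbp3 at 1323 against 191. Kdr was at 722 CPM there and at 257 in cluster 0. This cluster was also highest in 13 of 23 interferon-response genes, among them Rsad2, an antiviral enzyme, at 814 against 115 CPM, Ifit2 and Cmpk2. Itga1, Jam3, Rapgef4 and Cd300lg were among its 10 leading genes.

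Cluster 2 held 32 cells (9.44%) and was highest in 27 of 28 cell cycle genes. Birc5, an inhibitor of apoptosis needed for mitosis, was at 593 against 4.31 CPM, Ube2c, which serves the anaphase complex, at 796 against 8.61, and Top2a, the topoisomerase of dividing cells, at 398 against 5.74. 2810417H13Rik led the cluster, and Ccna2, Ccnb2, Cdca3, Fam64a, Cenpf and Cdca8 filled its top 10. Cycling cells made up 9.76% and 10.0% of members in healthy, 29.4% and 5.63% in acute, and 12.5% and 28.6% in chronic libraries. Acute 1 and chronic 2 were the high ones, from 10 and 2 cells. The median UMIs per cell were 5079.5 in this cluster and 2746 in cluster 1. The shallowest members held 3446 and 2674 UMIs in healthy, 3829 and 896 in acute, and 2140 and 3443 in chronic libraries. The part of depth in the cluster shares was not tested.

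Cluster 3 stayed unnamed because mural genes were among its leading genes. It held 29 cells and was highest in 12 of 15 arterial markers and in all 14 mural ones, and 6 of its cells had 5 or more UMIs of the mural gate. Gja4, an arterial gap junction protein, was at 376 against 14.8 CPM, Cldn5 at 3746 against 92.9, and Gkn3, an arterial marker, at 467 against 4.04. Cox4i2, Ndufa4l2, Higd1b, Acta2, Tagln and Myl9, genes of pericytes and smooth muscle, stood beside them with Vegfc. Without the 6 mural-positive cells, the remaining 23 were led by Gkn3, Cldn5, Hey1, a Notch target, and Stmn2, followed by Glul, Slc6a6, Clu, Cst3, Cxcl12 and Igfbp4. Cluster 4, with 29 cells, was highest in all 18 urothelial genes. Cluster 5, with 8 cells, was highest in MHC class II genes and Cd52, with Cd74 at 13588 against 121 CPM. In cluster 5, H2-Eb1, H2-Ab1 and H2-Aa were each found in only 37.5% of the cells and Cd74 in 50%. The doublet caller marked 3 cells in cluster 4 and 3 in cluster 5. Clusters 4 and 5 stayed unnamed.

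**Figure D3:**
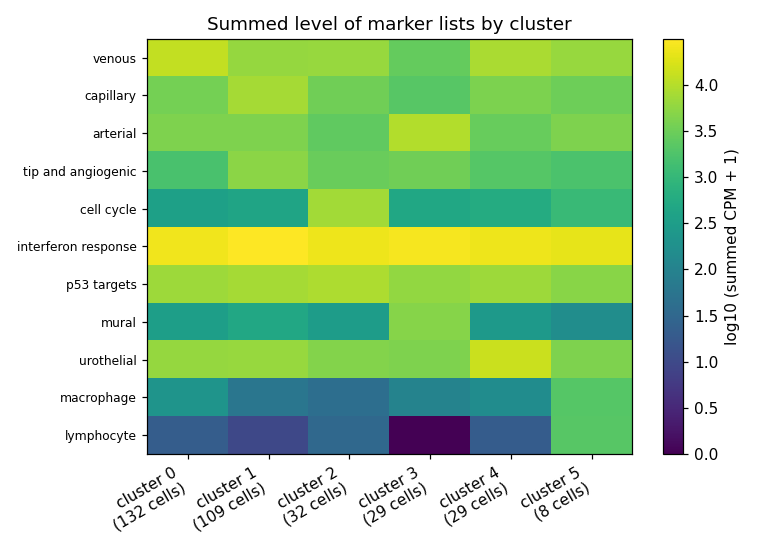
Summed level of 11 marker lists, as log10 (summed CPM + 1), in the 6 clusters of endothelial cells. The venous list peaks in cluster 0, the capillary list in cluster 1, the cell cycle list in cluster 2, the arterial and mural lists in cluster 3 and the urothelial list in cluster 4.

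The venous-like share was 29.3% and 40% of members in healthy, 41.2% and 40.3% in acute, and 43.8% and 28.6% in chronic libraries. The capillary-like share was 31.7% and 40%, 11.8% and 35.5%, and 31.3% and 14.3%. Since each gene was centred within its library before clustering, these shares cannot show a shift between conditions. The cycling cluster was kept under other settings, with 31 of its 32 cells together without centring and 32 at a finer resolution, while the venous-like cluster had 59.1% and 43.2% of its cells in the best matching cluster and the capillary-like cluster 88.1% and 49.5%, so both broke up at the finer resolution.

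Acute injury was compared with healthy in the 3 libraries that had 20 or more members, healthy 1 and acute 1 and 2, over 3794 genes. The quasi-likelihood test of edgeR called 26 genes higher and 7 lower (0.870% of genes tested), and 230 genes had an unadjusted p under 0.05. The lone healthy library is assumed to vary like the acute ones, and the count moved strongly, to 2 with DESeq2, which tested 12412 genes, 22 with edgeR on the same unfiltered genes, 6 when healthy 2 and chronic 1 joined the fit and 1 without 9 members that carried mural transcripts. Without those 9 members the log2 fold changes were 4.93 in Phlda3, 2.37 in Bax, 4.52 in Dcxr, 4.36 in Cox6b2 and 4.23 in Ccng1, while the prior degrees of freedom of the fit fell from infinite to 12.1. Healthy 2, with 10 members and outside this fit, lay below both acute libraries for 13 of the 26 genes that rose and above both for 4 of the 7 that fell. This tally is weak, since for Ccng1, Gdf15, Ltc4s, Ifit3b, Trp53inp1 and Sh3bgrl2 healthy 2 held 0 or 1 UMI and an acute level was under its limit of 134 CPM. Among the falls, Rgs5 and Ano6 rested on 2 UMIs each in healthy 2, at 89.4 CPM and so under that limit too. The same share over all tested genes is not given, so the tally has no background to be read against. Irrespective of the test, 316 genes (8.33%) had a fitted change of at least 2-fold upward with both acute libraries above healthy 1, and 244 (6.43%) downward with both below it. The median log2 fold change over all genes was 0.02.

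p53 target genes had more calls than any vessel list. Phlda3, Bax, Ccng1, Gdf15 and Trp53inp1 were among the 0.870% of all genes called. Of 26 found, 16 were tested and 13 were at least 2-fold higher without overlap against a background of 8.33%. The median log2 fold change was 1.89 against 0.02 over all genes. With all 6 libraries in 1 fit, 10 were tested and 1 (Phlda3) was called against 0.0520% of all genes. In that fit 8 were at least 2-fold higher without overlap, against 62 of 1924 genes, and the median of the p53 targets was 2.17. Their summed level was 2662 and 2457 CPM in healthy 1 and 2, 9131 and 8328 in acute 1 and 2, and 10854 and 10310 in chronic 1 and 2. The 4 injured libraries all lay above both healthy ones.

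The promoters of 4 of these genes show what sequence lies at their starts. Each line gives 250 bases before to 50 after the transcription start from RefSeq, build GRCm38.p6, on the strand of the gene, with matches to the p53 decamer in capitals. Phlda3 lies at chr1:135765835-135766134 (+), Cdkn1a at chr17:29090729-29091028 (+), Bax at chr7:45466849-45467148 (-) and Ccng1 at chr11:40755237-40755536 (-).
Phlda3: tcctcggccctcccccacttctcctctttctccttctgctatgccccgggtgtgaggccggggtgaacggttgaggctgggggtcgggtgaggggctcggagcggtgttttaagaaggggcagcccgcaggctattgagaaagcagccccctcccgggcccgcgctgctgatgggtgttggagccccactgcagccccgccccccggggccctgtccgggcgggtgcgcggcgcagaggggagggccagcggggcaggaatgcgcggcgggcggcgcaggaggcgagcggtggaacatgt
Cdkn1a: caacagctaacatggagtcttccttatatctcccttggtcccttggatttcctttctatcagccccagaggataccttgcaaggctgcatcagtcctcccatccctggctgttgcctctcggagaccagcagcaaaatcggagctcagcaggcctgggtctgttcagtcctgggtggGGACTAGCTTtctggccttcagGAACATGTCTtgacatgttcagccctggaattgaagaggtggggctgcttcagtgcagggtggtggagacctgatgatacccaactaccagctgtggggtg
Bax: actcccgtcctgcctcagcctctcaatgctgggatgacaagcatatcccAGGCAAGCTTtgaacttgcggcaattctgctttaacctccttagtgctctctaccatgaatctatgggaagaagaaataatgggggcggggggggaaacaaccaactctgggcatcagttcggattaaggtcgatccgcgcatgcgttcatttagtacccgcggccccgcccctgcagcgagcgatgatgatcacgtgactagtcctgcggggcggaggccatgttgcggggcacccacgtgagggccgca
Ccng1: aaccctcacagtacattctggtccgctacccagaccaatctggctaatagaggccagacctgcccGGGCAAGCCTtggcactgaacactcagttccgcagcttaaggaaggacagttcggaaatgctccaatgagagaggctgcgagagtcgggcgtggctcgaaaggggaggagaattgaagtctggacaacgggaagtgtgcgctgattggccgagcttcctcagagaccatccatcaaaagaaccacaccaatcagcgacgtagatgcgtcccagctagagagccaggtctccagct
The decamer is 3 purines, C, 2 bases that are A or T, G and 3 pyrimidines, and reads alike on both strands. It began 73 and 51 bases before the start in the Cdkn1a window shown, while a second Cdkn1a start, with its window at chr17:29093519-29093818, held none. It began 201 bases before the start in Bax and 185 in Ccng1, and no whole match was in the window of Phlda3. The last bases of that window, gaacatgt, match the start of the decamer, and a match across the edge was not looked for. Of 27 promoters of 19 p53 targets, 11 promoters of 10 genes held it, and 2745 of 32851 promoters of all genes did (8.36%). A match describes the sequence and was not tested for binding.

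Phlda3, which restrains Akt signalling, changed most. It was at 19.5 and 0 CPM in healthy 1 and 2, from 3 and 0 UMIs, at 740 and 598 in acute 1 and 2, and at 1222 and 1213 in chronic 1 and 2. The injured libraries lay far above the healthy ones. The log2 fold change in acute injury was 5.15 ± 0.76 (SE, edgeR adjusted p = 2.12e-08), and the pooled ratio of UMIs to the healthy libraries was 36.8 (95% counting interval 12.5 to 179). It was called in 19 of the 20 other settings in which it was tested, with a highest adjusted p of 0.0591. Within acute 2, Phlda3 was at 508, 582, 986 and 581 CPM in clusters 0 to 3, and in healthy 1 at 25.9, 0, 71.5 and 0 CPM, so each of these clusters was higher in acute 2 than in healthy 1.

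Bax, a pro-apoptotic protein of the mitochondrial membrane, was at 292 and 313 CPM in healthy, 1750 and 1277 in acute and 1023 and 992 in chronic libraries. Its log2 fold change in acute injury was 2.46 ± 0.58 (SE, edgeR adjusted p = 0.0059). The 2 healthy libraries were close to each other and well below the rest. Ccng1, cyclin G1, was at 13 and 0 CPM in healthy, 113 and 156 in acute and 256 and 331 in chronic libraries, a log2 fold change of 3.49 ± 0.82 (SE, adjusted p = 0.00559), with a pooled ratio of 13 (3.49 to 109) from 2 healthy UMIs. Gdf15, a stress cytokine, was at 19.5 and 0, 209 and 86.3, and 369 and 606 CPM (2.84 ± 0.76, adjusted p = 0.0261). Trp53inp1, a p53-induced nuclear protein, was at 6.49 and 44.7, 95.7 and 92.6, and 114 and 110 CPM (3.86 ± 1.08, adjusted p = 0.0423). In both genes the healthy libraries were the lowest. In the other settings in which each was tested, Bax was called in 12 of 20, Ccng1 in 7 of 20, Gdf15 in 6 of 20 and Trp53inp1 in 2 of 15, and the pooled ratio of Trp53inp1 to both healthy libraries was 8.22 (2.17 to 69.6) from 2 healthy UMIs.

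Cdkn1a, the p21 inhibitor of the cell cycle, was not called. It was at 890 and 313 CPM in healthy, 3725 and 2977 in acute and 4432 and 3253 in chronic libraries, with a log2 fold change of 2.00 ± 0.57 in acute injury (SE, edgeR adjusted p = 0.0533), and the groups did not overlap. Mdm2, the ligase that degrades p53, was at 84.4 and 44.7, 200 and 149, and 284 and 276 CPM (1.11 ± 0.58, adjusted p = 0.872). Aen, a nuclease, and Btg2, an antiproliferative gene, were also over 2-fold higher in the fit, with log2 fold changes of 1.77 and 1.30 and adjusted p of 0.747 and 0.474. Sesn2, Bbc3, Ddit4l and Perp completed the 13. Perp was at 32.5 and 89.4 CPM in healthy, 69.6 and 96.8 in acute and 56.8 and 551 in chronic libraries, against 867 to 1075 in urothelial cells, and the part of stray urothelial RNA in it was not tested.

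**Figure D4:**
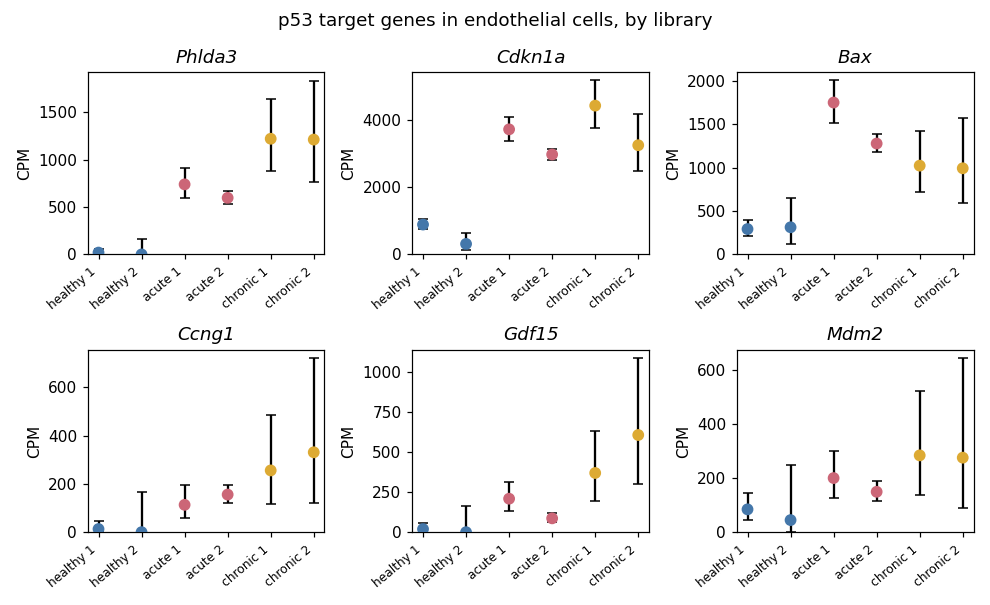
CPM of 6 p53 target genes in endothelial cells of each library, with 95% Poisson intervals of the summed counts. In each gene both healthy libraries lie below the 4 injured ones, although the wide counting intervals of the smallest libraries overlap others for Bax, Ccng1, Gdf15 and Mdm2.

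Phlda3, Cdkn1a, Bax and Ccng1 were higher in all 4 injured libraries than in both healthy ones in urothelial cells, fibroblasts and macrophages as well. Phlda3 in fibroblasts was at 232 and 323 CPM in healthy, 688 and 547 in acute and 877 and 622 in chronic libraries, and in macrophages at 10.5 and 40.3, 259 and 142, and 356 and 172. In urothelial cells it was at 100 and 137, 174 and 148, and 192 and 144 CPM. Cdkn1a in fibroblasts was at 587 and 492, 3078 and 887, and 3858 and 2600 CPM, and in macrophages at 819 and 272, 2923 and 1993, and 2568 and 2083. Bax in fibroblasts was at 248 and 262 CPM in healthy libraries and 483 to 830 in injured ones, and Ccng1 in urothelial cells at 92.0 and 112 and at 167 to 431. Mdm2 in fibroblasts did not share this order, at 50.1 and 33.4, 360 and 45.5, and 198 and 288 CPM. Whether the endothelial change was larger than in these classes was not tested.

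Dcxr, a carbonyl reductase, and Cox6b2, a subunit of cytochrome c oxidase, were called beside the p53 list. Dcxr was at 19.5 and 0 CPM in healthy, 400 and 282 in acute and 796 and 276 in chronic libraries, a log2 fold change of 4.16 ± 0.75 (SE, edgeR adjusted p = 2.37e-05). Cox6b2 was at 32.5 and 0, 670 and 271, and 966 and 662 CPM (3.86 ± 0.69, adjusted p = 2.37e-05). Healthy libraries were at or below 5 UMIs for both, and in the other settings Dcxr was called in 11 of 20 and Cox6b2 in 12 of 20. Ltc4s, leukotriene C4 synthase, was at 6.49 and 0, 174 and 63.1, and 56.8 and 386 CPM (3.99 ± 1.03, adjusted p = 0.0193). Sh3bgrl2, Commd3, H2-T23, Ifit3b and Hspa1b were called higher too, with log2 fold changes of 2.15 to 3.87. Ifit3b has a near-identical copy in Ifit3, and its reads may be split between them. H2-T23 was higher in healthy 2 than in acute 1, at 268 against 148 CPM. Hspa1b was too, at 89.4 CPM from 2 UMIs in healthy 2 against 34.8 in acute 1.

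Dcxr in fibroblasts was at 36.0 and 53.7 CPM in healthy libraries and 165 to 315 in injured ones, and Cox6b2 in fibroblasts at 136 and 318 and at 438 to 522. Car3, carbonic anhydrase, was called on acute 2 alone, at 208 CPM with 0 in acute 1. In fibroblasts Car3 was at 2069 and 1021 CPM in healthy and 1589 and 4977 in acute libraries. Of 14 fibroblast genes, 7 were tested, and Dcn and Gsn were at least 2-fold higher without overlap against 8.33% of all genes. The median log2 fold change of that list was 1.30, and the part of stray fibroblast RNA was not tested. Acta2, smooth muscle actin, was at 39.0 CPM in healthy 1 and 270 and 168 in acute libraries, and at 9184 CPM in mural cells.

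Urothelial genes were called higher as well. Of 18 found, 15 were tested and 14 were at least 2-fold higher with both acute libraries above healthy 1, against 8.33% of all genes. The median log2 fold change was 1.78. With all 6 libraries in 1 fit, 14 were tested and none was called. In that fit 1 (Krt15) was at least 2-fold higher without overlap, against 62 of 1924 genes, and the median was 0.871. Psca, Gsta4, Krt18, Ly6d and Upk1b were among the 0.870% of all genes called in the 3-library fit. Fam25c, Fxyd3, S100a6, Sprr2a3 and Wfdc2 were called beside them. Psca was at 104 and 670 CPM in healthy, 548 and 928 in acute and 1250 and 662 in chronic libraries, and Fam25c at 77.9 and 1430, 348 and 844, and 1335 and 331. Healthy 2 lay within the range of the injured libraries for Psca and above it for Fam25c. In urothelial cells Psca was at 1771 to 6565 CPM, and the part of stray urothelial RNA in these calls was not tested.

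Of the 7 genes called lower, Rgs5 and Cox4i2 mark pericytes. Rgs5 was at 701 and 89.4 CPM in healthy, 60.9 and 14.7 in acute and 85.2 and 0 in chronic libraries (log2 fold change -4.53 ± 0.54, edgeR adjusted p = 4.11e-13), and Cox4i2 at 162 and 0, 52.2 and 10.5, and 0 and 0. The summed level of 14 mural genes was 1617 and 134 CPM in healthy, 1114 and 545 in acute and 227 and 55.1 in chronic libraries, and 6 of the 9 members with 5 or more mural UMIs were in healthy 1. Without those 9 members, Rgs5, Cox4i2, Ifitm1 and Acta2 were not among the genes tested. Ifitm1, Tonsl, Ano6 and Eogt fell as well, with log2 fold changes of -2.02 to -2.58. Tonsl was at 175 and 179 CPM in healthy, 87.0 and 4.21 in acute and 256 and 110 in chronic libraries, and acute 2 alone was near 0 in the other classes too, at 1.81 CPM in urothelial cells, 0.66 in fibroblasts and 0 in macrophages against 108 to 242 in these classes of the other 5 libraries. Ano6 was likewise lowest in acute 2 in urothelial cells and fibroblasts, at 25.9 and 30.3 CPM against 48.9 to 89.2 in the other libraries. Ifitm1, Eogt and Cox4i2 were at 0 in healthy 2, where 3 counts are 134 CPM, and so cannot be placed against acute levels of 10.5 to 52.2 CPM.

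Col4a2, a type IV collagen chain of the vessel basement membrane, was also among the falls. It was at 903 and 268 CPM in healthy, 183 and 225 in acute and 85.2 and 165 in chronic libraries, with a log2 fold change of -2.0 ± 0.46 in acute injury (SE, edgeR adjusted p = 0.00454). Both healthy libraries were above the other 4. It was called in 6 of 19 other settings and never changed sign, and without the mural-positive members its log2 fold change was -1.70 with an adjusted p of 0.569. Col4a2 was among the 0.870% of all genes called. Of 22 basement membrane genes, 19 were tested and 6 were at least 2-fold lower without overlap (Col4a1, Col4a2, Col15a1, Lama4, Lamb2 and Hspg2). The background was 6.43% of all genes, and the median log2 fold change of the basement membrane genes was -0.65. Their summed level was 10305 and 7015 CPM in healthy, 5214 and 5902 in acute and 4404 and 4080 in chronic libraries. The fibroblast mean of the same genes was 14241 CPM and the level in mural cells of acute 2 was 7682, so these genes are not specific to endothelium.

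Other vessel lists had 0 to 1 calls in acute injury. Of 10 tip and angiogenic genes tested, Igfbp3, Col4a1 and Col4a2 were at least 2-fold lower, against 6.43% of all genes. Plaur, the urokinase receptor, was at least 2-fold higher, against 8.33%. The median was -0.75, and Col4a2, already counted with the basement membrane genes, was among the 0.870% of all genes called. VEGF, angiopoietin and apelin receptors and ligands had 12 tested and none called, with Nrp1, a co-receptor of VEGF, and Vegfc at least 2-fold lower against 6.43% of all genes and a median of -0.63. Capillary genes (10 tested, median -0.45), leukocyte adhesion genes (16, -0.04), junction genes (17, -0.04), interferon genes (23, 0.24) and venous genes (12, 0.17) had none called, and Tmem252 alone of the venous genes was 2-fold higher, against 8.33% of all genes. Of 23 immediate-early and stress genes, 1 (Hspa1b) was called against 0.870% of all genes, 3 (Nr4a1, Btg2 and Hspa1b) were at least 2-fold higher against 8.33%, and the median was 0.43. With all 6 libraries in 1 fit, over 1924 genes, Phlda3 was the single gene called in acute injury (0.0520%), with a log2 fold change of 5.30 ± 0.61 (SE, edgeR adjusted p = 0.00681).

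The largest changes that were not called, by the rule on non-overlapping groups, were Ahnak2, Bglap2, Ociad2, Sesn2, Meg3, Pmm1, Akr1b8, Snx2, Ces2e and Pgk1 among the rises and Higd1b, Zfp46, Col15a1, Notch3, Lama4, Ppp1r15b, Cygb, Sema7a, Nova2 and Wdfy1 among the falls. The rises had adjusted p of 0.119 to 0.979 and the falls of 0.0611 to 0.937. Higd1b and Notch3 are mural genes.

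Chronic injury had only 16 and 7 members, so no chronic library reached 20 cells, and the comparison used all 6 libraries without a minimum, a choice made after the data were seen. Of 1924 genes tested, 3 were called higher (0.156%), none lower, and 163 had an unadjusted p under 0.05. DESeq2, over 12540 genes, called 4. Genes at least 2-fold higher without overlap numbered 136 (7.07%) and lower 159 (8.26%), and the median log2 fold change over all genes was -0.03.

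The 3 calls were Phlda3, Dcxr and Cox6b2, which were also called higher in acute injury in the 3-library fit. Both comparisons use healthy 1. In Phlda3 the log2 fold change was 6.11 ± 0.62 (SE, edgeR adjusted p = 0.00203), and the pooled ratio was 71.7 (95% counting interval 23.5 to 356). Its adjusted p ran from 0.000256 to 0.0168 when any 1 library was left out. Dcxr (5.04 ± 0.82) and Cox6b2 (4.88 ± 0.77) both had an adjusted p of 0.0496, just inside the threshold, and both missed it without healthy 1 (0.2 and 0.099) and without chronic 1 (0.316 and 0.0713). Of 10 p53 targets tested, 1 was called against 0.156% of all genes. In the same list 8 were at least 2-fold higher without overlap against 7.07% of all genes, and the median log2 fold change was 2.25. Cdkn1a had a log2 fold change of 2.55 ± 0.48 (adjusted p = 0.0759), Gdf15 of 4.72 ± 0.84 (0.0759) and Ccng1 of 4.56 ± 0.86 (0.0759). Gdf15 was at 369 and 606 CPM in the chronic libraries against 209 and 86.3 in the acute ones, and a fit of acute against chronic called 0 genes, with 100 at an unadjusted p under 0.05 and 0 by DESeq2.

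Capillary genes were low in both chronic libraries. Of 9 tested, none was called, 6 (Rgcc, Gpihbp1, Kdr, Aqp1, Cd300lg and Aplnr) were at least 2-fold lower without overlap against 8.26% of all genes, and the median log2 fold change was -2.13 against -0.03 over all genes. Their summed level was 5909 and 6300 CPM in healthy, 2463 and 5086 in acute and 2131 and 992 in chronic libraries. Of the healthy 1 sum, Aqp1 alone gave 2922 CPM, and it did not set the capillary-like cluster apart from cluster 0. Chronic 1 and 2 were the lowest, with acute 1 close above.

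Rgcc was at 565 and 447 CPM in healthy, 191 and 692 in acute and 28.4 and 0 in chronic libraries, where 1 UMI was left, a pooled ratio of 0.034 (95% counting interval 0.001 to 0.194). Gpihbp1 was at 610 and 894, 305 and 783, and 85.2 and 110 CPM. Aqp1 was at 2922 and 2949, 923 and 2300, and 909 and 331 CPM. Kdr, the main VEGF receptor, was at 636 and 447, 279 and 364, and 114 and 55.1 CPM, with a log2 fold change of -2.59 ± 0.60 (SE, edgeR adjusted p = 0.192). In each of these genes the chronic libraries were below the healthy ones, and none passed the test. Gpihbp1 and Kdr rested on 5 chronic UMIs each, and in chronic 2 both were under its limit of 165 CPM. With 16 and 7 cells, fewer capillary cells and lower levels per cell cannot be told apart. The depth of the shallowest members also differed between libraries, and its part in these levels was not tested.

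**Figure D5:**
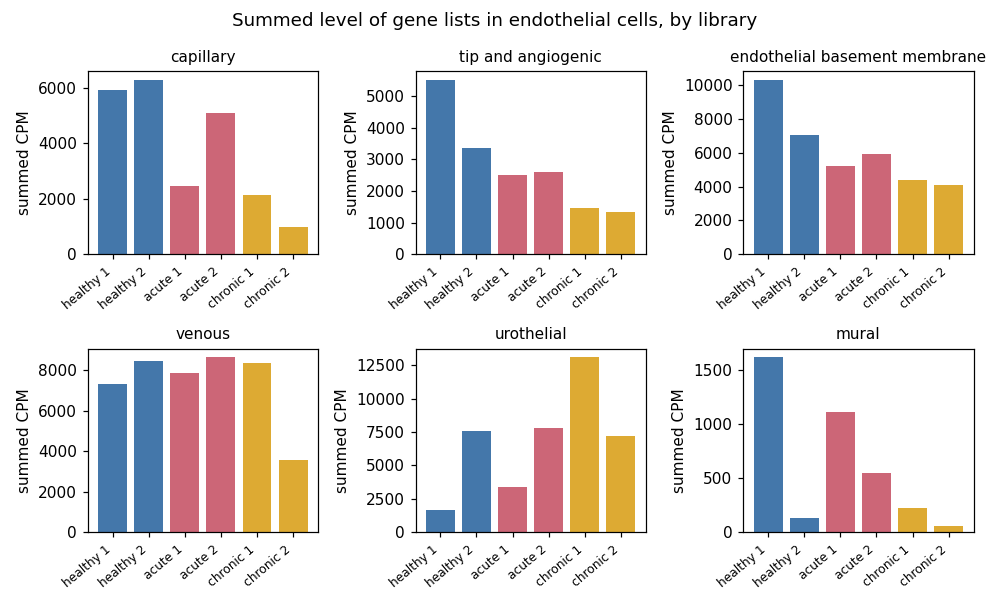
Summed CPM of 6 gene lists in endothelial cells of each library (bars, starting at 0). The capillary and tip lists are lowest in the chronic libraries, at 992 to 2131 and 1323 to 1477 CPM, while the urothelial list is highest in chronic 1 at 13098 CPM.

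Tip and angiogenic genes followed the same order, and 7 of 8 tested were at least 2-fold lower in chronic injury against 8.26% of all genes, with a median of -1.83 and none called. Their summed level was 5520 and 3351 CPM in healthy, 2498 and 2615 in acute and 1477 and 1323 in chronic libraries. Col4a1 was at 1065 and 894, 383 and 412, and 114 and 221 CPM, with a log2 fold change of -2.67 ± 0.50 (SE, edgeR adjusted p = 0.0759). Igfbp3 was at 1026 and 223, 165 and 513, and 28.4 and 55.1 CPM. Col4a2, Cd34, Trp53i11, Insr and Dll4 made up the rest of the 7, and Plaur, the eighth gene, was at least 2-fold higher, against 7.07% of all genes. Col4a1 belongs to both the tip and the basement membrane list, which has 5 of 10 tested genes at least 2-fold lower (Col4a1, Col4a2, Sparc, Sparcl1 and Vwa1) against 8.26% of all genes and a median of -0.80.

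VEGF, angiopoietin and apelin genes had 5 of 10 at least 2-fold lower (Flt1, Kdr, Nrp1, Nrp2 and Aplnr) against 8.26% of all genes, a median of -1.01 and none called. Kdr and Aplnr were already counted with the capillary genes. The pan-endothelial genes, which include Flt1 and Kdr, had a median of -0.62 in the same fit. Flt1, the decoy receptor for VEGF, was at 1292 and 938, 644 and 610, and 398 and 386 CPM, so the injured libraries lay below the healthy ones and chronic below acute. Nrp1 was at 649 and 804, 348 and 173, and 170 and 276 CPM. The summed level of the list was 4773 and 4468, 3116 and 2550, and 2074 and 2095 CPM. Venous genes did not share this order, with 10 tested, a median of -0.13 and sums of 7312 and 8445, 7860 and 8652, and 8382 and 3584 CPM.

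Cxcl12, a chemokine of arterial cells, was at 429 and 179 CPM in healthy, 131 and 185 in acute and 28.4 and 0 in chronic libraries (-4.15 ± 1.00, edgeR adjusted p = 0.201). Pcdh17, a protocadherin, was at 266 and 223, 113 and 202, and 0 and 0 CPM, at least 4.64-fold lower in the pooled chronic libraries when these are set to 3 counts. Hnrnpd, Snhg12, Smg1 and Thrsp were at 0 in both chronic libraries too, and set alike were only 2.42, 1.81, 1.21 and 3.13-fold lower. The counting interval in Smg1 includes no change, and AW112010 and Cd300lg were at 2 and 1 UMIs. Gkn3 was at 26.0 and 0, 60.9 and 14.7, and 313 and 386 CPM, but its 11 and 7 UMIs in the chronic libraries came from 1 cell each. Sdc1, a syndecan of epithelia, was at 13 and 44.7, 43.5 and 54.7, and 313 and 276 CPM. The adjusted p were 0.258 for Gkn3 and 0.192 for Sdc1. Ephx1, Ltc4s, Anxa8, Krt15, Slc27a3 and Uap1l1 were the other large rises that were not called. Of 29 pan-endothelial genes tested, 9 were at least 2-fold lower against 8.26% of all genes and none was called, and the median was -0.62. Urothelial genes had a median of 1.64 in the same comparison.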

How the data were processed

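Single-cell suspensions of bladder mucosa were sequenced with a droplet kit, and the authors deposited raw counts of UMIs, genes by cells, in 1 table per library for 6 libraries. The submitters' processing notes name Cell Ranger and mm10, and per the study's methods Cell Ranger demultiplexed the reads and counted genes. The deposited counts came from cells with a mitochondrial share of about 10% or less, and 1 line of the healthy 1 table was cut short and left out. Genes present in all tables numbered 14450, and 14338 were used without mitochondrial and ribosomal protein genes. Levels are summed UMIs per 1000000 UMIs of these genes (CPM), without TMM factors. The levels at the edge of the rule are per 1000000 UMIs of all genes.

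The members and gene lists were chosen with earlier results of these data known. Member counts were summed per library and fitted with edgeR 4.0.16 in R 4.3.3 (TMM factors, filterByExpr, glmQLFit and glmQLFTest, Benjamini-Hochberg adjustment over all genes tested, call at 0.05), with condition as the single term. Libraries needed 20 members, which left 3 libraries and 1 residual degree of freedom for acute injury and no chronic library. With infinite prior degrees of freedom, that acute fit gave each gene the pooled spread, so its p-values do not measure the gene's own spread. The chronic comparison therefore departs from the planned fit and uses all 6 libraries. DESeq2 1.42.0 served as an alternative. A gene was 2-fold changed without overlap when its fitted log2 fold change passed 1 and the libraries' ranges were apart. Named genes were those called, the 10 largest rises and falls of non-overlapping genes with a mean of at least 50 CPM, list members by level, call or fold, the 25 genes furthest from other classes and the 10 leading genes of each cluster. Further genes named with them were chosen after their values were seen. 1 called gene is not reported here. Clustering used scanpy 1.11.5 (Leiden, resolution 0.6, genes centred by library), and doublets were called with an expected rate of 0.8% per 1000 cells and kept. Other classes were gated alike on raw UMIs. Shares used an exact permutation test (scipy 1.17.1) and Wilson intervals, and levels exact Poisson intervals, at 95%. The code was tested on simulated data with known folds. It recovered them with the right sign at low dispersion, but at the dispersion of these data the 3-library fit recovered none to some of them, depending on the draw, while the 6-library fit was steadier, so the number of genes called by the 3-library fit is unstable.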

Additional observations from a re-analysis of the deposited data

How the results depend on the processing

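Phlda3 kept its call in acute injury in 19 of 20 settings. The number of genes called did not hold. Against 33 in the comparison of healthy 1 with both acute libraries, it was 2 with DESeq2, which also tested all 12412 genes in place of 3794, 15 with a gate of at least 10 UMIs, 6 with at least 10 members per library, and, in settings added after seeing the data, 1 without mural-positive members, 1 with all 6 libraries and 11 with at least 10 members and a replicate block. It was 22 to 35 under DESeq2's size factors, no filter, a gate of 3, stricter keratin and matrix limits, doublets removed and clusters 4 and 5 removed. In the 6-library fit, acute injury had 3 calls with DESeq2, over 12540 genes in place of 1924, and 0 to 6 when 1 library was left out, against 1. It was 0 without healthy 1, 2 without healthy 2 or acute 2, and 6 without chronic 1 or chronic 2. Chronic injury had 1 to 5, against 3, with 1 without chronic 1 and 5 without acute 1 or acute 2. The cause was not tested, except that leaving out a library leaves fewer samples. Share differences ran from 0.196 to 1.37 points in acute and -0.355 to 0.0334 in chronic injury when 1 library was left out.

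Whether libraries with the same number deviate together was checked. The correlation of replicate 1 minus replicate 2 over 1924 genes was 0.234 between healthy and acute, -0.082 between healthy and chronic and -0.15 between acute and chronic, so only healthy and acute moved together, and the numbers were not taken as pairs. The study's methods mention processing in batches, and which library was in which batch is not given in the sources used here. With a replicate block in the 6-library fit, the calls were 1 in acute, 3 in chronic and 0 in acute against chronic. With at least 10 members per library and the block they were 11, 46 and 10, against 6, 4 and 0 without it. The block and leaving out 1 library could not be fitted in the 3-library comparison, which has no residual degrees of freedom to spare, and the planned chronic fit had no library with 20 members.

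Depth limits what can be seen. Healthy 2 and both chronic libraries hold at most 35195 UMIs of members each over the genes used, and 0 counts there allow a level of up to 85.2 to 165 CPM.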

Other observations

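Within healthy 1 and the acute libraries, genes of leukocyte adhesion varied without a shared direction. Selp was at 825 and 357 CPM in healthy, 1314 and 726 in acute and 710 and 331 in chronic libraries, and Icam1, an integrin ligand, at 494 and 44.7, 583 and 316, and 994 and 55.1. Vcam1, a further integrin ligand, was at 175 and 0, 348 and 112, and 483 and 386 CPM, with a log2 fold change of 1.72 ± 0.79 in chronic injury (SE, edgeR adjusted p = 0.596). Gas6, a ligand of TAM receptor kinases, was at 260 and 223, 757 and 585, and 1307 and 606 CPM. The healthy libraries were the lowest, and the edgeR adjusted p was 0.249 in acute and 0.207 in chronic injury. Rsad2 was at 201 and 134, 95.7 and 454, and 0 and 55.1 CPM, and Isg15, another interferon-induced gene, at 740 and 223, 548 and 1313, and 142 and 441.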
